A study of Mus musculus with 2 samples.

Results

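Snap25, Prrt2, Pclo and Nrxn2 encode proteins of the presynaptic terminal, and each of their mRNAs had peaks in the RIP-seq (RNA immunoprecipitation followed by sequencing) of Mov10, an RNA helicase, from postnatal mouse brain. The members are all 8 peaks that share at least 1 base with a GENCODE exon of these 4 genes, on the strand opposite the listed strand, out of 2296 peaks on the list. The genes were selected on the measured values, because each has listed peaks with many IP reads, so their presence on the list and their IP reads are given as a description. The IP library and the input library were each made once, from brains of 28 pooled WT C57bl/6 pups at 2 days after birth. The IP was done without cross-linking and followed a first IP with an irrelevant antibody, which was not analysed here, and the input was total RNA of the same tissue. There is no replicate and no group without Mov10, so no test between conditions can be made. The brain was not dissected, so neurons and glia are mixed, and more cells of a type cannot be told apart from more RNA per cell.

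Presynaptic terminals release transmitter when SNARE proteins draw a synaptic vesicle and the plasma membrane together at the active zone. Snap25 is a SNARE of the plasma membrane, and Prrt2 is a proline-rich membrane protein that binds the SNARE machinery and acts in calcium-triggered release. Pclo (Piccolo) is one of the giant scaffolds of the active zone, and Nrxn2 is a neurexin, an adhesion molecule that reaches across the cleft to postsynaptic partners. Mov10 is known for its action on 3′ UTRs together with Argonaute proteins and for the suppression of retroelements.

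Of the 8 peaks, 5 lay in coding sequence, 2 in the 3′ UTR and 1 in the 5′ UTR. Among 644 exonic peaks of protein-coding genes on assembled chromosomes with at least 50 exonic bases, 57.6% lay mostly in coding sequence, 31.7% in the 3′ UTR and 10.7% in the 5′ UTR. Peaks are numbered here from the 5′ end of each mRNA. The coordinates are those of mm10, and the sequences are GENCODE M21 transcripts on the same assembly. The sequences under the coding peaks are printed because the peaks differ most in what they are made of. They read 5′ to 3′ along the mRNA, and capitals mark every CAGCC, a run of 5 bases that was picked after these sequences had been seen.

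The Snap25 peak 2 sequence is all of exon 7, chr2:136777336-136777480 on the plus strand, which codes for part of the second SNARE helix of the protein, and it held no CAGCC.
Snap25 peak 2: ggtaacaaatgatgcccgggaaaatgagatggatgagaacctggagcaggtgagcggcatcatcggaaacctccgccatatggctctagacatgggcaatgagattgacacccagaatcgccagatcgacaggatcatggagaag
The Prrt2 sequence is the stretch of 200 bases with the most copies of CAGCC within peak 1, chr7:127019985-127020184 on the minus strand, in exon 2, which codes for the cytoplasmic, proline-rich part of the protein.
Prrt2 peak 1: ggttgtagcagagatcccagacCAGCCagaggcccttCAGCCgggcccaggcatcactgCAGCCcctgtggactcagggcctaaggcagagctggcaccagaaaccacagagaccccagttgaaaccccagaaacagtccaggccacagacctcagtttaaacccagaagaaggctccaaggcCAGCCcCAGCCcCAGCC
The Pclo sequence is the whole peak, chr5:14521791-14521995 on the plus strand, in exon 2.
Pclo peak 1: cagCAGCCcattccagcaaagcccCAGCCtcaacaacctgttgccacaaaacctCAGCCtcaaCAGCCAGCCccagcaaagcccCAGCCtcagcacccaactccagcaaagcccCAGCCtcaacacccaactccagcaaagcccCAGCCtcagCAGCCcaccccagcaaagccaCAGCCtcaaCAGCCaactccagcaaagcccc
The first Nrxn2 sequence, chr19:6517001-6517200 on the plus strand, lies in exon 21.
Nrxn2 peak 1: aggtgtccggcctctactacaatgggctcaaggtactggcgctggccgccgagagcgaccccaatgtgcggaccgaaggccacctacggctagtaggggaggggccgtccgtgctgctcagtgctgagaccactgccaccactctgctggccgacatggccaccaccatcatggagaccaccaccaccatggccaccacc
The second, chr19:6531801-6532000 on the plus strand, lies in exon 23 and covers the codons of the transmembrane segment.
Nrxn2 peak 2: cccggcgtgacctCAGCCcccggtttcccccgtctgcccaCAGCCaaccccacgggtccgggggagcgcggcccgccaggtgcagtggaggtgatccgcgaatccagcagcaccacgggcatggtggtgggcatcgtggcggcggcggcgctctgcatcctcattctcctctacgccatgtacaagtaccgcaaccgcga

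**Figure D1:**
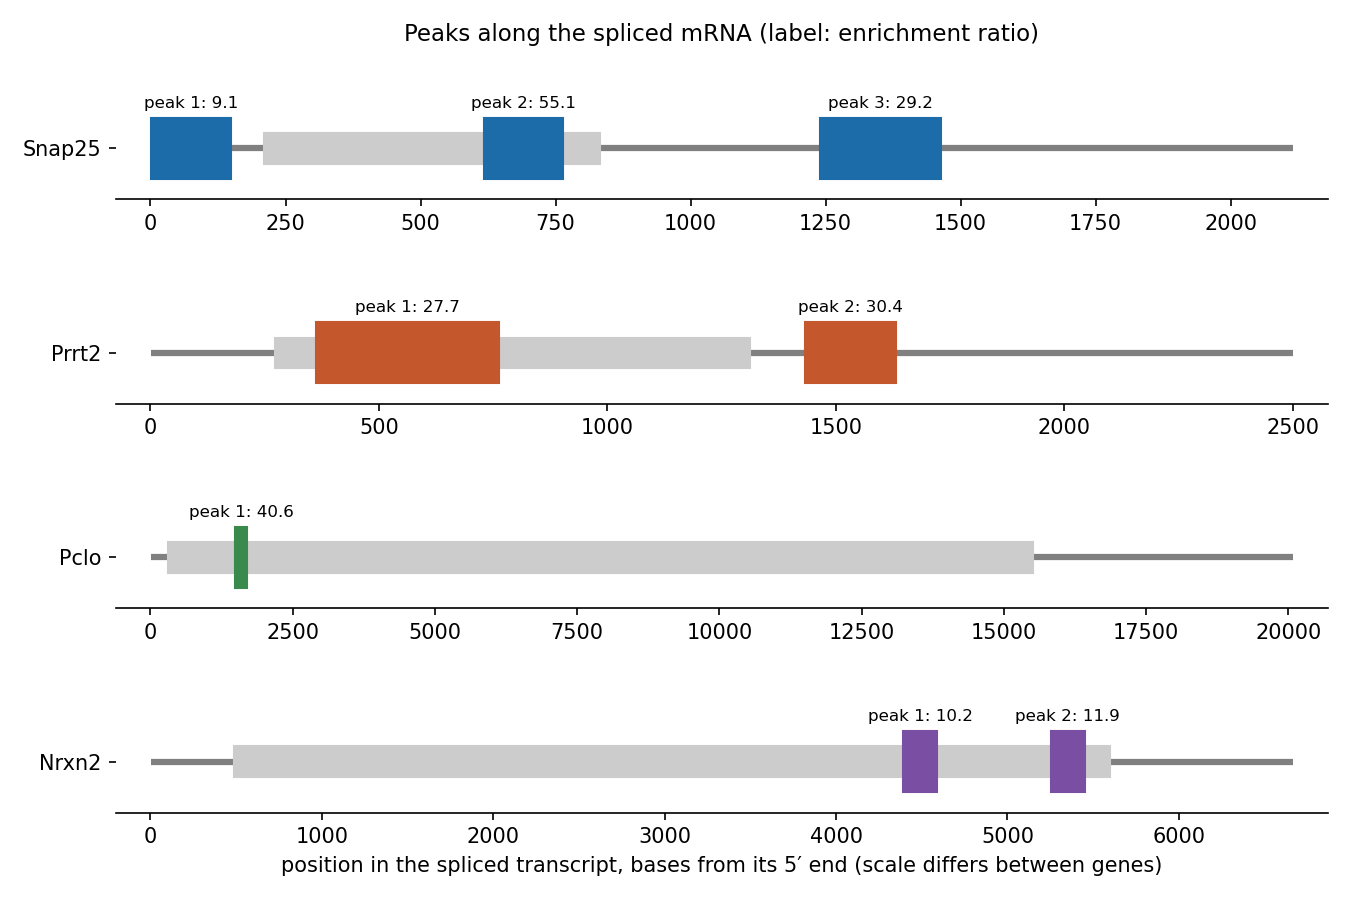
Position of the 8 peaks along the spliced reference transcript of each gene, in bases from its 5′ end, with the coding sequence as a thick grey bar, the UTRs as a line and each peak as a colored block labelled with its enrichment ratio. The Snap25 peaks lie in the 5′ UTR, the coding sequence and the 3′ UTR with ratios of 9.05, 55.1 and 29.2, and the single Pclo peak lies near the 5′ end of a transcript of 20084 bases.

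For each peak, the enrichment ratio is the IP reads over the input reads, each divided by the aligned reads of its library. Its 95% interval is exact (conditional binomial) and reflects the counting of reads in these 2 libraries, not any spread between samples. Reads without molecular identifiers are not independent molecules. Levels are reads per 1000 bases of peak per 1000000 aligned reads.

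Snap25 (ENSMUSG00000027273.13, on the plus strand of chromosome 2) had 3 peaks, at exons 1, 7 and 8 of the 8 exons of Snap25-201. Peak 1, chr2:136713376-136713600, had 4431 IP reads and 408 input reads, which gave a ratio of 9.05 (8.18 to 10.04). It holds the first 148 bases of the mRNA, all in the 5′ UTR, and the rest of its 225 bases lies before the annotated start. Peak 2, chr2:136777276-136777500, had 4296 IP reads and 65 input reads, a ratio of 55.1 (43.1 to 71.5). Its 145 exonic bases are codons 136 to 184 of the 206, and the rest of the peak is intronic. Peak 3, chr2:136781551-136781775, had 5260 IP reads and 150 input reads, a ratio of 29.2 (24.8 to 34.6). All of its 225 bases are in the 3′ UTR, from 408 bases after the stop codon, and only 1 of the 2 coding transcripts of Snap25 reaches it. The 3 intervals did not overlap.

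The Snap25 peaks differed in their input and hardly in their IP. The IP level was 275 at peak 1, 267 at peak 2 and 327 at peak 3, a range of 1.22-fold. The input level was 30.4, 4.85 and 11.2, a range of 6.28-fold. Per exonic base, in place of per base of the whole peak, the ranges were 1.28-fold for the IP and 6.15-fold for the input. The ratio thus ranged 6.09-fold within 1 mRNA, and the place of Snap25 among the enriched mRNAs depended on the peak taken. Over the 145 protein-coding genes with at least 2 exonic peaks, the median range was 1.17-fold for the IP, 1.71-fold for the input and 1.71-fold for the ratio, and the input range was the wider in 122 genes (84.1%). The ratio ranged more than 3-fold in 19 of these genes, and Snap25 had the sixth widest range. This rank is not like for like, as a range can only widen with more peaks, and Snap25 has 3 where 2 sufficed. The top of its range also rests on the 65 input reads of peak 2. Peaks were listed for their IP reads, so the narrow range of the IP is in part set by that choice.

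Prrt2 (ENSMUSG00000045114.10, minus strand of chromosome 7) had 2 peaks. Peak 1, chr7:127019801-127020200, had 8522 IP reads and 256 input reads, a ratio of 27.7 (24.5 to 31.5). It is 400 bases long, and covers codons 31 to 164 of the 346 in Prrt2-201. Peak 2, chr7:127018401-127018600, had 4193 IP reads and 115 input reads, a ratio of 30.4 (25.3 to 36.9). It lies in exon 4, in the 3′ UTR, from 120 bases after the stop codon. The intervals of the 2 ratios overlapped. Per length, the peaks had nearly the same level, 298 and 293 in the IP and 10.7 and 9.64 in the input, so the larger read count of peak 1 goes with its length. Both peaks also lie over exons of Gm42742, an overlapping gene on the same strand that GENCODE lists as protein-coding, and reads of the 2 genes cannot be told apart there.

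Pclo (ENSMUSG00000061601.15, plus strand of chromosome 5) had 1 peak of 205 bases with 6034 IP reads and 124 input reads. The ratio was 40.6 (34.0 to 48.9). Its IP level of 412 was the highest of the 8 peaks per base of the whole peak, but per exonic base Snap25 peaks 1 and 2 were higher, at 419 and 414. Its input level was 10.1. The peak covers codons 397 to 465 of the 5068, in exon 2 of 25, and 18387 bases of Pclo-201 follow it. It makes up 1.02% of that transcript, against 24.5% of Snap25-201 and 23.99% of Prrt2-201 under their peaks.

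Nrxn2 (ENSMUSG00000033768.17, plus strand of chromosome 19) had 2 coding peaks with lower ratios. Peak 1 had 4941 IP reads and 402 input reads, a ratio of 10.2 (9.25 to 11.4), and covers codons 1302 to 1368 of the 1703 in Nrxn2-205. Peak 2 had 5431 IP reads and 381 input reads, a ratio of 11.9 (10.7 to 13.2), and covers codons 1589 to 1655. Their intervals overlapped. The IP levels were 345 and 380 and the input levels 33.7 and 31.95. Per base of the whole peak, these IP levels were above those of Snap25 and Prrt2 and these input levels were the highest of the 8 peaks. Per exonic base both orders turned, as Snap25 peaks 1 and 2 then had IP levels of 419 and 414, and Snap25 peak 1 had an input level of 46.2. Peak 1 lies in 8 and peak 2 in 7 of the 9 coding transcripts of Nrxn2, so the reads do not tell the long and short neurexin forms apart.

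**Figure D2:**
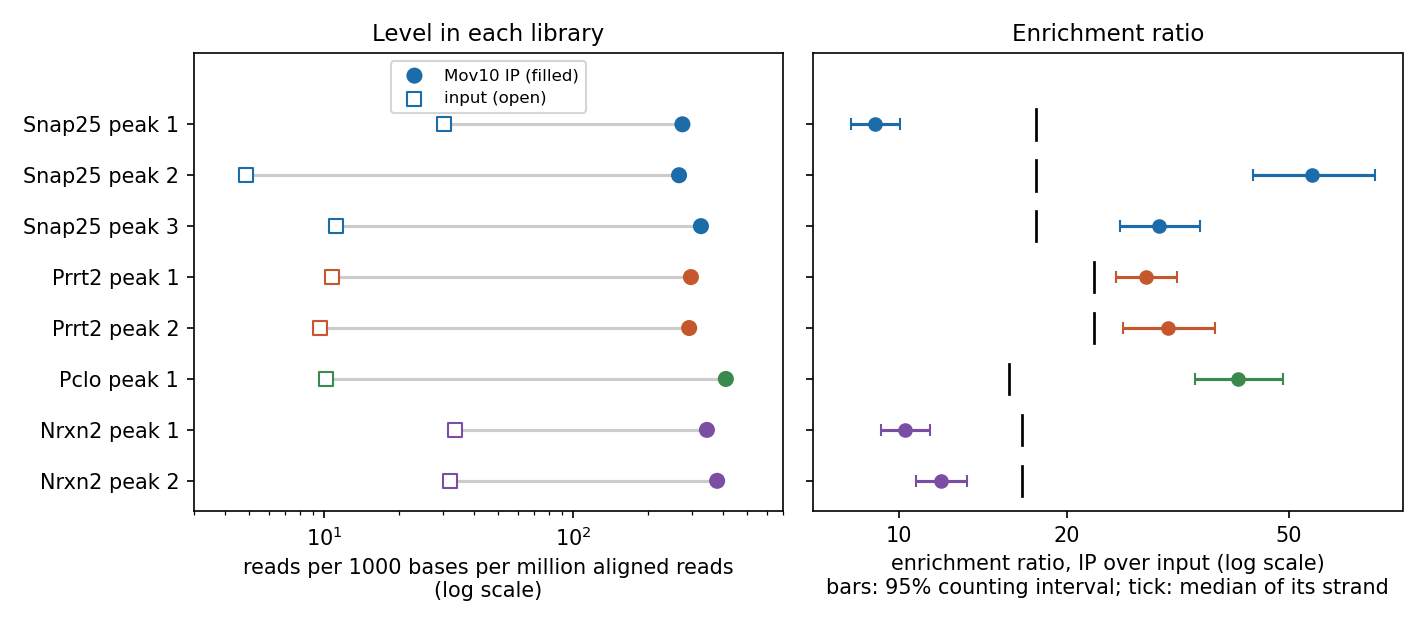
Left, reads per 1000 bases per 1000000 aligned reads (log scale) in the Mov10 IP (filled circles) and the input (open squares) for each of the 8 peaks, 1 library each. Right, enrichment ratio (log scale) with its 95% counting interval, and as a black tick the median ratio of all peaks listed on the same chromosome strand; Snap25 peak 1 and both Nrxn2 peaks lie below their tick, and the other 5 lie above it.

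Ordered by ratio, the peaks ran from Snap25 peak 2 (55.1) and Pclo (40.6) through Prrt2 peak 2 (30.4), Snap25 peak 3 (29.2) and Prrt2 peak 1 (27.7) to Nrxn2 peak 2 (11.9), Nrxn2 peak 1 (10.2) and Snap25 peak 1 (9.05). Neighbors in this order had overlapping intervals, except for the step from Prrt2 peak 1 to Nrxn2 peak 2. With the reads of a gene summed, the ratio was 40.6 for Pclo, 28.6 (25.8 to 31.8) for Prrt2, 18.7 (17.3 to 20.3) for Snap25 and 11.04 (10.3 to 11.9) for Nrxn2, and these 4 intervals did not overlap. The Snap25 interval is that of a sum of unlike peaks, and the ratio of no single Snap25 peak lies in it. Its peaks lay both below those of Nrxn2 and above that of Pclo, so the genes are not cleanly ordered. The median ratio of the 8 peaks was 28.4, with a pseudocount of 0.5 on both counts. It was 17.4 when scaled to uniquely aligned reads and 13.4 when scaled to the reads of all listed chromosome peaks, which multiply every ratio by a common factor. On the scale of aligned reads it was 14.5 over 657 exonic peaks of protein-coding genes on assembled chromosomes, whose quartiles were 9.07 and 22.5. By ratio, 95.3% of those peaks lay below Snap25 peak 2, 91.3% below Pclo, and 24.8% below Snap25 peak 1. These places are a description, as the IP reads on which the genes were selected enter the ratio. The median IP count was 5100.5 for the 8 peaks and 1766 for the 657. Among the other 63 peaks on the 4 strands of the genes, the median ratio was 17.9. The median IP level of the 8 peaks was 312, and that of the other 63 peaks on their 4 chromosome strands was 316.

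**Figure D3:**
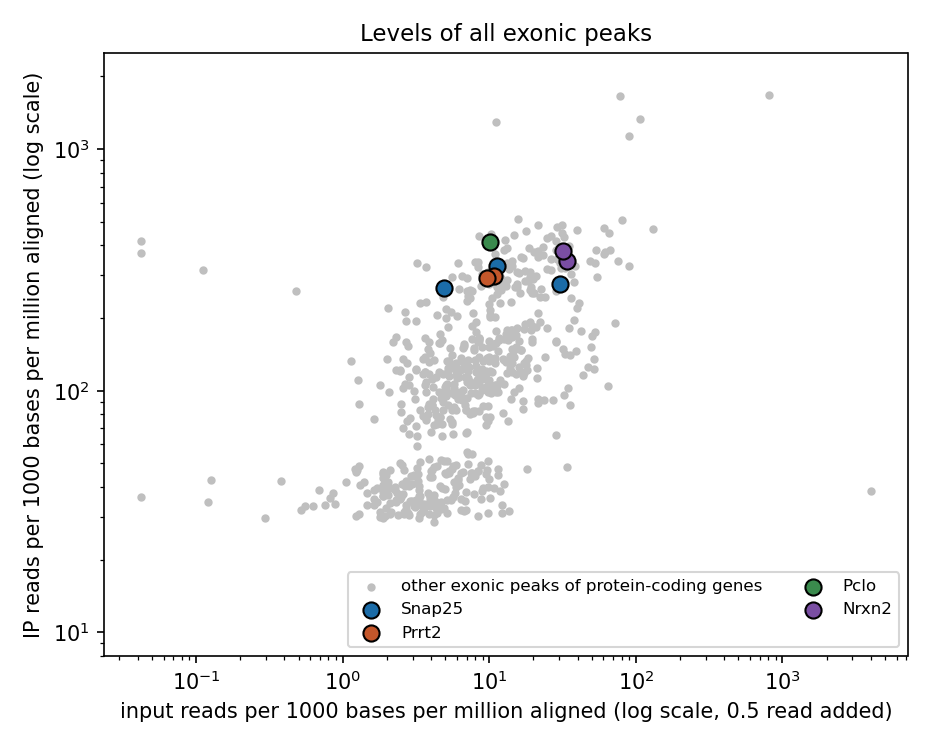
IP level against input level (reads per 1000 bases per 1000000 aligned reads, both on log scales, with 0.5 input reads added) of the exonic peaks of protein-coding genes on assembled chromosomes in grey and of the 8 peaks of the 4 genes in color. The 8 peaks share a narrow band of IP levels from 267 to 412 and spread along the input axis from 4.85 to 33.7.

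Per the paper, the caller was run once for each strand, and the calls largely went by chromosome strand. What sets this pattern was not tested. All 8 peaks passed an adjusted p of 0.05, as did 43.4% of all listed peaks. Each of the 8 is listed with an adjusted p of 0. On the 4 strands that hold the genes, however, 100% of the peaks passed (71 of 71), so the count of 8 reads nothing about these genes. Of the 32 strands of assembled chromosomes with a listed peak, all peaks passed on 25 and none on 4. By the empirical false discovery rate (eFDR), a second measure of the caller, none of the 8 passed 0.05, against 23.4% of all listed peaks. Their eFDR was 0.455 for Pclo, 0.478 for Snap25, 0.667 for Prrt2 and 0.889 for Nrxn2, and no other peak on these 4 strands passed either.

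Peaks with fewer IP reads than the lowest on their strand are not on the list. The lowest IP count of any listed peak was 4075 on the strand of Snap25, 3691 on that of Prrt2, 4524 on that of Pclo and 4516 on that of Nrxn2. Closest to these limits, relative to them, were Snap25 peaks 2 and 1 with 4296 and 4431 IP reads and Nrxn2 peak 1 with 4941. Over all strands this lowest count ran from 226 to 20339, so a gene on one strand could be listed with reads that would not have listed a gene on another. Within its strand, Prrt2 peak 1 ranked 1 of 27 by IP reads but 16 of 27 by IP reads per length, and Prrt2 peak 2 ranked 21 by either. By IP reads, Nrxn2 peak 2 ranked 1 of 9, Nrxn2 peak 1 ranked 4 of 9, Pclo 5 of 11, and Snap25 peaks 3, 1 and 2 ranked 5, 16 and 20 of 24. By ratio, with an input of at least 3 reads assumed, Pclo ranked 1 of 11 and Snap25 peak 2 ranked 2 of 24, whereas Nrxn2 peak 1 ranked 9 of 9 and Snap25 peak 1 ranked 22 of 24. The other 63 peaks of these strands had a median of 4663 IP reads and a median ratio of 17.9.

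**Figure D4:**
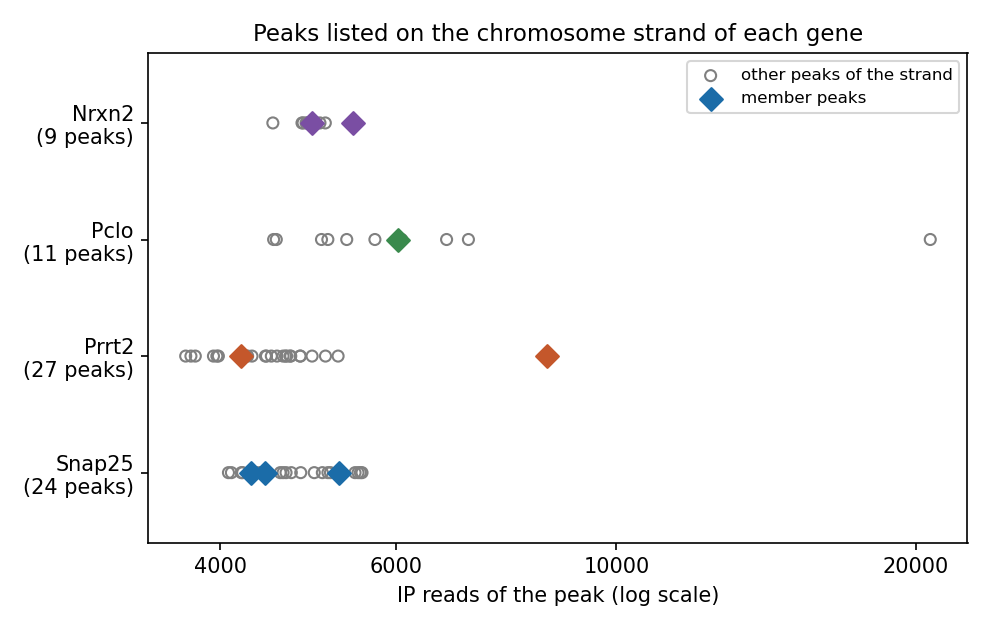
IP reads (log scale) of every peak listed on the chromosome strand of each gene, with the peaks of the named gene as filled diamonds and the other peaks as open circles. The lists start between 3691 and 4524 IP reads, and the 2 Snap25 peaks with the fewest reads lie close to the start of theirs.

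The Pclo peak stood apart in sequence, a property that the choice of the genes did not use. C made up 47.8% of its bases, the sixth highest share among 644 exonic peaks, G 13.7% and T 7.32%. It is a tandem repeat: shifted by 90 bases, which is 30 codons, it matched itself at 84.3% of positions, the second highest self-identity among the 644 peaks, whose median was 36.8% over shifts of 10 to 100 bases. The repeat runs over 397 bases of the mRNA, from base 1425 to 1821, and the peak covers bases 1493 to 1697. The run CAGCC was picked after the sequences under the coding peaks had been seen, so its counts and ranks are a description and not a test. Copies of CAGCC numbered 11, the highest count among the 644 peaks, of which 42.2% held at least 1. Prrt2 peak 1 held 9, the second highest count, in a peak of 400 bases, and ranked 9 of 644 by copies per length, by which Pclo still ranked 1. Nrxn2 peak 2 held 2 and Prrt2 peak 2 held 1, and the other 4 held none. Reads of a repeat can match several places in it, and the caller gives each such read a single place, so how the reads spread within the repeat was not tested.

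Mov10 unwinds RNA, so the predicted folding of the peaks was computed as minimum free energy per base, which is lower for a more stable fold. The Pclo peak had −0.060 kcal/mol per base, and only 0.311% of the 644 exonic peaks had a less stable predicted fold. Along Pclo-201 itself, 0.402% of 1988 windows of the same length did, with a median over the windows of −0.215. The Nrxn2 peaks were at the other end, with −0.381 and −0.391 kcal/mol per base, more stable than 88.4% and 89.8% of the exonic peaks. Against windows of their own mRNA they were ordinary, more stable than 57.7% and 63.2%. By the same measure, Snap25 peaks 1, 2 and 3 were more stable than 84.8%, 77.3% and 55.3% of windows. Prrt2 peaks 1 and 2 were more stable than 27.0% and 10.8%. Prrt2 peak 2, at −0.175 kcal/mol per base, was more stable than only 9.47% of the exonic peaks. The 8 peaks ranged from −0.391 to −0.060, with a median of −0.268 beside −0.264 over all 644 peaks.

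The GC content was 58.7% in the median of the 8 peaks and 54.0% over the 644. It was 69.5% and 65.0% in Nrxn2, 61.5% in Pclo, 60% and 55.5% in Prrt2, and 57.4%, 51.7% and 36.0% in Snap25. Snap25 peak 3, in the 3′ UTR, had a low GC content, and 2.48% of the exonic peaks had a lower one. Snap25 peak 1, in the 5′ UTR, was richer in GC than 89.3% of windows of its own mRNA. The 3′ UTR peak of Prrt2 was 41.0% C and 14.5% G, and 2.48% of exonic peaks had a lower share of G. Within the 8 peaks, the ratio did not follow GC content in order: the 2 Nrxn2 peaks, highest in GC, were near the bottom by ratio, and Pclo, next in GC, ranked 2 by ratio.

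**Figure D5:**
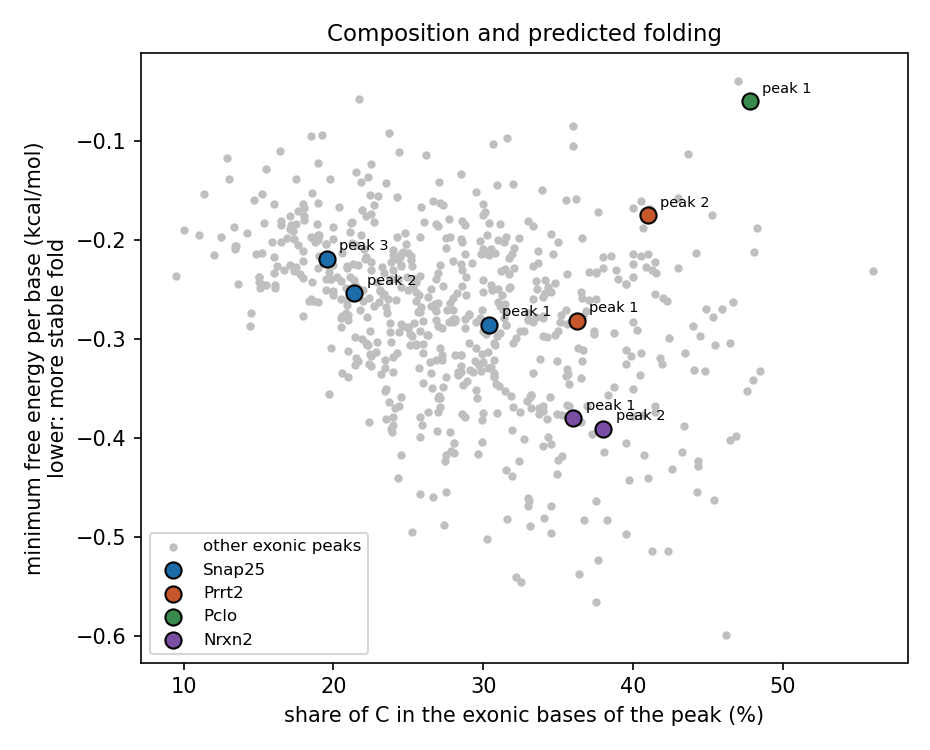
Share of C (%) against predicted minimum free energy per base (kcal/mol, lower for a more stable fold) of the exonic bases of each exonic peak in grey and of the 8 peaks in color, numbered from the 5′ end of each mRNA. Pclo peak 1, at 47.8% C and −0.060, lies at the upper right edge, and the Nrxn2 peaks lie among the more stable folds.

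The 2 peaks in 3′ UTRs were searched for seed matches of a list of 30 miRNAs known from brain, of which 28 had an entry in the RefSeq table (GRCm38.p6), and mmu-miR-124-3p and mmu-miR-485-5p had none. A seed match is the complement of bases 2 to 8 of the miRNA, on the strand of the mRNA alone. Each peak held matches of 2 miRNAs. Of 204 exonic peaks lying mostly in 3′ UTRs, 37.7% held a match of at least 1 miRNA and 12.3% of at least 2. The miRNAs are printed with the seed in capitals, and the sites of 27 bases with the match in capitals, so that the pairing can be read.
mmu-miR-130a-3p: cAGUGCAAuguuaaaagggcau
Snap25 peak 3, chr2:136781688-136781714 on the plus strand: ataacaggcaTTGCACTaaaagtgatg
mmu-miR-23a-3p: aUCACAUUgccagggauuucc
Snap25 peak 3, chr2:136781665-136781691 on the plus strand: ataattagacAATGTGAaattacataa
mmu-miR-30a-5p: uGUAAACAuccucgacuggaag
Prrt2 peak 2, chr7:127018573-127018599 on the minus strand: tgagcggcctTGTTTACagcttctttc
mmu-miR-17-5p: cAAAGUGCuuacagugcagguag
Prrt2 peak 2, chr7:127018505-127018531 on the minus strand: ctttctccctGCACTTTtgcctgcaga
Except at the site of mmu-miR-17-5p, an A follows the match, as in the 8-base form of a site. The same match was held by 6 of the 204 peaks for mmu-miR-130a-3p, by 5 each for mmu-miR-17-5p and mmu-miR-30a-5p, and by 4 for mmu-miR-23a-3p. A match is a string of letters, and binding of a miRNA was not measured.

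Other presynaptic genes on the list were counted by their role. Of 122 genes in 8 lists, 13 had an exonic peak past the adjusted p of 0.05, which is 10.7% (5.80 to 17.5, Clopper-Pearson), against 1.82% of all 22028 protein-coding genes. Without the 4 genes chosen here it was 9 of 118, or 7.63% (3.55 to 14.0). The lists were made with earlier results of these data known, and 99 of the 122 genes lie on a strand with any listed peak, against 75.4% of all protein-coding genes, so the shares are a description. The 22028 genes were not limited to genes expressed in brain. Lists of brain cell markers ranged from 0 of 6 genes (microglia) to 4 of 10 (neurons) with a passing peak. Whether the share is particular to presynaptic genes was not tested. Within its role, each of the 4 genes had at most 1 other gene with a passing peak beside it. Snap25 was the 1 gene of 12 SNAREs and recycling factors, Prrt2 the 1 of 17 SNARE regulators and priming factors, and Pclo the 1 of 21 active zone scaffolds with a passing peak. Nrxn2 shared its list of 8 presynaptic adhesion genes with Cntnap2, a neurexin-like protein. Not all genes of these lists lie on a strand with any listed peak. In the same order, 12 of 12, 12 of 17, 16 of 21 and 6 of 8 genes do. The rest could not have been counted. The lists are also short, and the share of 1 of 12 has an interval of 0.211% to 38.5%.

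The other genes, taken at their peak with most IP reads, had ratios from 6.73 to 22.3. In genes with several peaks the ratio depended on the peak taken. Over all peaks it ran from 5.59 to 15.6 in Syt1, 6.10 to 16.5 in Ap2m1 and 11.2 to 17.2 in Syn1. The range was narrower in Rab3a (5.60 to 6.73) and Cntnap2 (11.5 to 13.6). Of 11 calcium sensors, Syt1, which triggers fast release, had 4727 IP and 252 input reads, a ratio of 15.6 (13.8 to 17.8), and Syt5 had 3736 and 144, a ratio of 21.6 (18.3 to 25.7). Of 10 calcium channel genes of the terminal, Cacnb3, a beta subunit, had a ratio of 13.1 (10.9 to 15.8). Of 21 genes for vesicle membrane proteins and synapsins, 3 had a peak. Syn1, which tethers vesicles in the reserve pool, had a ratio of 13.4 (11.8 to 15.3), and the small GTPases Rab3a and Rab3b had 6.73 (6.09 to 7.46) and 22.3 (18.8 to 26.6). Of 22 genes for vesicle endocytosis, Clta, a clathrin light chain, had 10.003 (8.55 to 11.8) and Ap2m1, the medium subunit of the AP2 adaptor, had 7.03 (5.59 to 8.96). Cntnap2 had 11.5 (9.37 to 14.3). Across the cleft, Lrrtm4, a postsynaptic partner of neurexins and the 1 of 11 such genes with a passing peak, had 497 IP and 27 input reads, a ratio of 15.3 (10.4 to 23.5).

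With the reads of a gene summed, the 9 other genes had a median ratio of 12.1, the range being 6.13 to 22.2, against 14.6 over the 401 protein-coding genes with a passing exonic peak. Pclo (40.6) and Prrt2 (28.6) lay above that range, and Snap25 (18.7) and Nrxn2 (11.04) within it. The IP reads, on which the 4 genes were selected, enter this ratio, and the genes lie on strands with different median ratios. Relative to the median of its own strand, the ratio was 1.24 and 1.36 for the Prrt2 peaks and 2.58 for Pclo. By the IP reads of the peak with most reads, the 4 genes headed the 13, and Snap25 with 5260 was next to Syt1 with 4727. This order is no finding, as the 4 genes were selected for many IP reads. The lowest IP count listed on the strand was also 3691 to 4524 for the 4 genes, against 425 to 3691 for the 9 others. Only Cntnap2 and Ap2m1 of the 13, and Lrrtm4, passed the eFDR.

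Markers of neurons and other brain cells were on the list too. A passing exonic peak was found for 4 of 10 neuronal genes (Tubb3, Map2, Nefl and Nefm), 2 of 8 of astrocytes and radial glia (Apoe and Ptprz1), 1 of 8 of the oligodendrocyte lineage (Olig1), 2 of 6 of blood and vessels (Cldn5 and Col1a2) and 0 of 6 of microglia, beside 1.82% of all protein-coding genes. Of these markers, 9 of 10, 6 of 8, 5 of 8, 6 of 6 and 4 of 6, in the same order, lie on a strand with any listed peak, so the other markers could not have been counted. How far cell types shape the ratios of the 4 genes was not tested.

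The peaks most like the highest peak of each gene, by IP and input level together, came from genes of other roles. For Snap25 they were in Ina, a neuronal intermediate filament (ratio 31.8, 26.6 to 38.2), and in Tcf25 (27.5, 23.1 to 33.1). For Prrt2 they were the same peak of Tcf25 and a peak of Chmp4b, a subunit of the ESCRT-III complex (26.0, 22.1 to 30.8). For Pclo they were in the chaperone Hsp90ab1 (43.2, 36.2 to 51.9) and in Gnao1, a G protein subunit (33.6, 28.3 to 40.3). For Nrxn2 they were in Slc8a1, a sodium-calcium exchanger (11.4, 10.3 to 12.6), and in the chaperone Hsp90aa1 (13.3, 11.9 to 14.9). Hsp90ab1 and Hsp90aa1 are paralogs, and reads that they may share were not examined. The distances on the log2 scale of the 2 levels ran from 0.014 for Prrt2 and Tcf25 to 0.19 for Pclo and Gnao1.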

How the data were processed

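RIP-seq reads of 1 Mov10 IP library and 1 input library were analysed from the deposited peak list. Per the labels, the authors used bcl2fastq 2.17.1.14 for base calling. They aligned reads with TopHat2 2.1.1 to unmasked mm10, keeping many alignments per read, and called peaks with RIPSeeker on each strand, which places reads with several hits at 1 locus. Its read counts, adjusted p and eFDR per peak are used as deposited, and the counts are not scaled. The paper states 71522027 aligned IP reads and 59620379 aligned input reads, of which 57005129 and 29124706 were unique, and ratios were scaled to the aligned reads. The input had 65 to 408 reads per peak of the 4 genes, and these counts set the width of the intervals. Intervals of shares are Clopper-Pearson at 95%.

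The 4 genes and all lists were chosen with earlier results of these data known. Exons came from GENCODE M21 alone, as RefSeq exons were not used here. A whole-peak GC content was planned, but sequences were read from transcripts, so the exonic bases were used. For each gene the coding transcript with most bases under its peaks was taken. Windows moved by 10 bases. Copies of the peaks in other genes, at 95% identity over at least 100 bases, were sought with BLAST+ 2.17.0, and none was found but Gm42742. Folding used ViennaRNA 2.7.2, and other work Python 3.11.15, numpy 2.4.6, pandas 2.3.3, scipy 1.17.1 and matplotlib 3.10.9. Named genes are the 4 genes, each listed gene with an exonic peak, and the 2 peaks of other protein-coding genes nearest to each gene's peak with most IP reads, by log2 IP and input levels. No test between conditions was possible with 1 library per group. On simulated counts at 3 known ratios, the 95% intervals held the true ratio in 95.3% to 95.7% of 2000 draws each. The draws were independent counts, as the interval assumes, so they check the computation and not its fit to these reads. Of 50 regions placed on listed peaks, 50 were found, which checks the overlap step alone. The alternatives tried were other thresholds, library totals, pseudocounts and overlaps.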

Additional observations from a re-analysis of the deposited data

How the results depend on the processing

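All 8 peaks of the 4 genes remained when an overlap of at least 50% was required. Counting either strand also gave 8, but this setting includes the opposite strand and could not give fewer. No peak was added by exons on the listed strand, so the count rests on reading the opposite strand. Exons of RefSeq alone and GC content of whole genomic peaks were not run. The adjusted p of 0.01 left 8 of 8 peaks and 13 listed presynaptic genes, whereas an eFDR of 0.05 left 0 peaks and 2 genes. The median ratio of 28.4 was 17.4 with uniquely aligned reads, 13.4 with the reads of all listed chromosome peaks, and 23.6 with reads summed per gene. It was 28.3 with a pseudocount of 1 and 29.1 without Snap25 peak 1, a setting added after the data had been seen. Both values lay between 24.7 and 33.1, the median lower and the median upper limit of the intervals of the 8 peaks. These limits are not an interval of the median ratio itself. Uniquely aligned reads multiplied every ratio by 0.613, which gave 5.55 to 33.8 for the 8 peaks. Relative to the median of its chromosome strand, a second added setting, the ratio was above 1 in 5 of 8 peaks, from 0.514 for Snap25 peak 1 to 3.13 for Snap25 peak 2. The share of peaks past the adjusted p was 91.2% on assembled chromosomes, 90.4% of peaks with an exon on the opposite strand, and 23.4% by the eFDR. In windows of 100 bases, the median folding energy was −0.246 kcal/mol per base. Depth limits the ratios through the input, at 65 to 408 reads per peak. No paired analysis was possible because each group has 1 library.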
